A study of Rattus norvegicus with 24 samples.

Results

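Livers of neonatal rats given dexamethasone were compared with livers of rats of the same age given vehicle, in 8 of the study's 24 RNA-seq libraries. They were chosen by tissue and treatment in the sample titles: 4 liver libraries from pups given dexamethasone and 4 from pups given vehicle. The pups were Sprague Dawley rats labelled wild type. Each received 5 daily subcutaneous injections from postnatal day 1, of dexamethasone at 0.1 mg/kg or of vehicle (2.5% ethanol), and the liver was taken at postnatal day 6, 24 hours after the last injection. Livers of pups given desisobutyryl ciclesonide at 1.25 mg/kg on the same schedule enter the model for the spread, and their values are set beside the others below. That dose differs from the dexamethasone dose, so the drugs are not compared. Lungs from the same treatment groups serve for a test of where the liver response differs. The labels give neither sex nor litter, so p-values cover no more than the variation among these libraries.

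Dexamethasone is a synthetic glucocorticoid that enters cells and binds the glucocorticoid receptor, a transcription factor that then moves to the nucleus and raises or lowers its target genes. In liver, glucocorticoids are known for inducing enzymes of gluconeogenesis and amino acid breakdown, and for a part in the change from fetal to adult hepatocyte function. The liver of a newborn rat holds hepatocytes, sinusoidal and bile duct cells, and blood-forming cells that leave it after birth. RNA was measured in bulk tissue, where fewer cells of a type and less RNA per cell cannot be told apart.

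Genes are given by Ensembl identifier, because neither the count files nor the gene table at hand pairs these identifiers with names. For the same reason the liver label could not be checked against hepatocyte markers. As a check on tissue, each of the 8 libraries was correlated across 13245 genes with the mean of the other 7 (Pearson r from 0.943 to 0.967) and with the mean of the lung libraries (0.615 to 0.636). Libraries held 15397992 to 23346998 gene counts with dexamethasone and 16724129 to 17953806 with vehicle. On the first principal component of the 8 libraries, with 73.2% of the variance, the dexamethasone libraries lay at 45.0 to 70.5 and the vehicle libraries at -59.3 to -46.6. Dexamethasone replicate 2 stood apart from the other 3 dexamethasone libraries, at 70.5 on this component and at -39.6 on the second, which held 7.50% of the variance. The root mean square distance between 2 dexamethasone libraries was 0.410 to 0.631 on the log2 scale, between 2 vehicle libraries 0.346 to 0.504, and between a dexamethasone and a vehicle library 0.937 to 1.23.

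The largest loss in share of counts was that of ENSRNOG00000002889. It stood at 359, 155, 476 and 513 CPM (counts per gene, scaled to a common library size) in the dexamethasone libraries. The ciclesonide libraries held 10401, 18988, 7887 and 8323 CPM, and the vehicle libraries 23879.9, 31184, 34264.5 and 25467 CPM. Dexamethasone and vehicle libraries lay far apart, with dexamethasone replicate 2 the lowest library. The change with dexamethasone over vehicle was 76.4-fold downward (log2 change -6.26, SE 0.44, edgeR adjusted p = 2.60e-07). The transcript took 0.0351% ± 0.0171 of gene counts with dexamethasone and 3.06% ± 0.443 with vehicle (SD, n = 4 each), which placed it at rank 274 with dexamethasone and at rank 5 with vehicle among all genes by counts, a ranking not corrected for gene length. In lung it had 4 counts over the 4 dexamethasone libraries, all in replicate 4, and 7 to 42 counts per vehicle library. The lung change did not pass the test (log2 change -4.40, edgeR adjusted p = 0.0973). Nor did the liver change less the lung change (-1.95 on the log2 scale, SE 3.44, edgeR adjusted p = 0.701). With so few lung counts, the error is too wide to say whether the tissues differ.

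The largest gain in share of counts was that of ENSRNOG00000014964. It stood at 32626.5, 34640.3, 31782.5 and 26389.6 CPM with dexamethasone. With desisobutyryl ciclesonide it was spread widely, at 8122, 9687, 28052 and 14704 CPM, the third library within the range of the dexamethasone libraries. With vehicle it stood at 8236, 7079, 7898 and 7478 CPM with vehicle. All dexamethasone libraries were above all vehicle libraries, and the change was 4.09-fold upward (log2 change 2.03, SE 0.32, edgeR adjusted p = 0.000122). Its share of gene counts was 2.83% ± 0.198 with dexamethasone and 0.819% ± 0.0537 with vehicle (SD, n = 4 each), which placed it at rank 4 with dexamethasone and at rank 14 with vehicle. The same gene rose in lung, at 57.9, 42.2, 67.6 and 59.8 CPM with dexamethasone and 22.5, 21.6, 18.8 and 21.04 CPM with vehicle (log2 change 1.44, adjusted p = 8.40e-06). The liver change less the lung change was 0.57 on the log2 scale (SE 0.41, adjusted p = 0.294), which misses the threshold.

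The largest log2 changes by the rule for named genes belonged to transcripts detected in 1 of the liver groups compared and without a count in the other. ENSRNOG00000069485 stood at 3.46, 7.25, 3.20 and 6.82 CPM with dexamethasone, had 1, 0, 4 and 12 counts with desisobutyryl ciclesonide and had no count in any vehicle liver library. It was at least 125-fold higher against a floor of 3 counts over the vehicle group (edgeR adjusted p = 3.00e-05). In lung it stood at 7.99, 8.34, 5.78 and 8.30 CPM with dexamethasone and again had no count with vehicle. ENSRNOG00000019660 had no count with dexamethasone and stood at 10.3, 6.66, 2.83 and 2.40 CPM with vehicle, so it was at least 126-fold lower (edgeR adjusted p = 0.000163). With desisobutyryl ciclesonide it stood at 2.43, 6.15, 1.99 and 1.27 CPM. Its vehicle libraries were themselves spread widely, with replicates 3 and 4 the lowest. The same transcript fell in lung, to 3, 0, 2 and 0 counts with dexamethasone against 133, 79, 79 and 100 with vehicle (adjusted p = 5.24e-05). The test of the tissue difference could not decide for either transcript. ENSRNOG00000069485 had no vehicle count in either tissue, so its difference has no usable estimate (SE 1581 on the log2 scale, edgeR adjusted p = 0.9999). For ENSRNOG00000019660, without a count in dexamethasone liver, the difference was -4.45 with a wide error (SE 2.98, edgeR adjusted p = 0.266). Such all-or-none patterns were rare: 3 genes that rose had no vehicle count, and 14 genes that fell had no dexamethasone count.

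**Figure D1:**
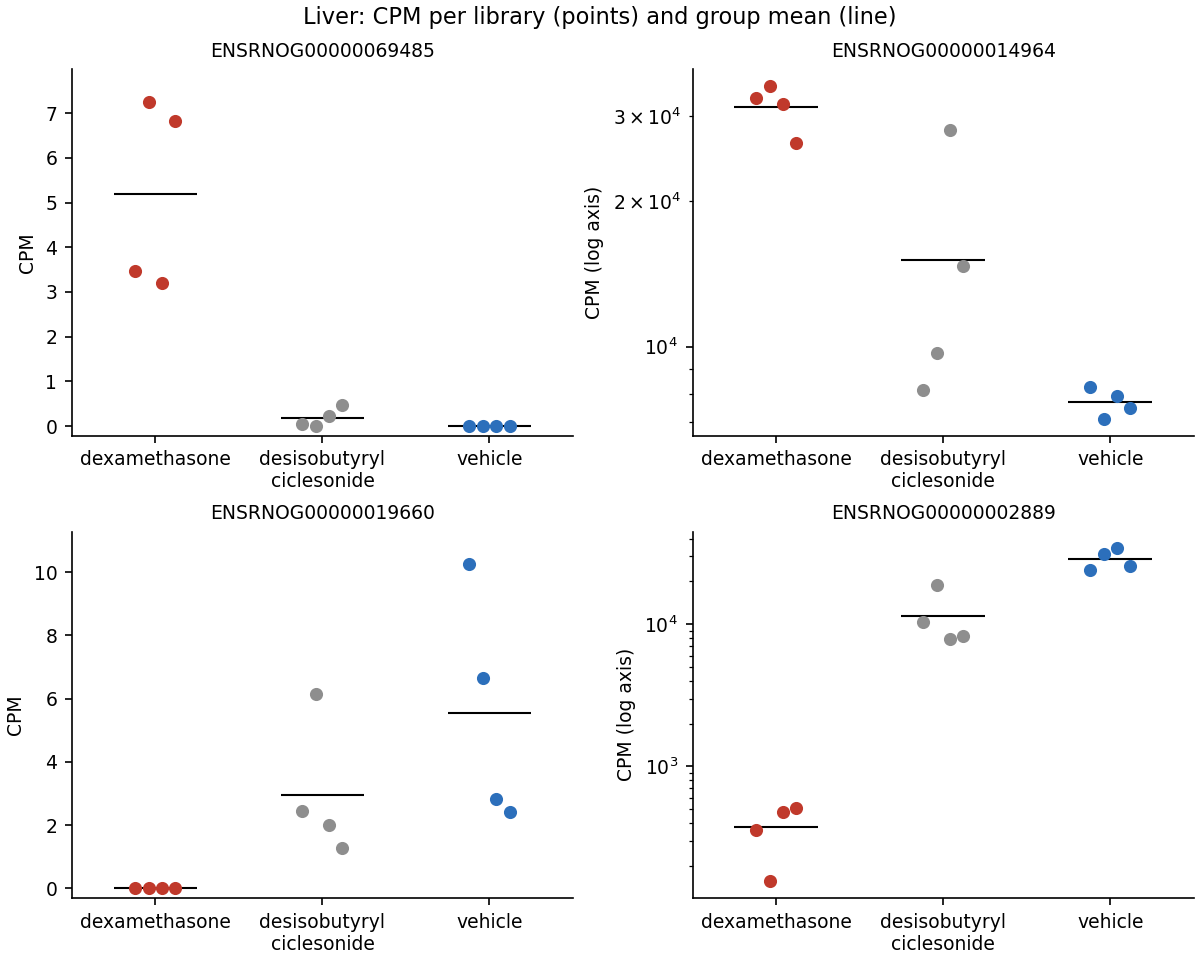
CPM of 4 genes in each liver library (points, 4 per group) with the group mean (line) for dexamethasone, desisobutyryl ciclesonide and vehicle; the right panels have a log axis. ENSRNOG00000002889 lies at 155 to 513 CPM in all dexamethasone libraries, against 23879.9 CPM or more in all vehicle libraries.

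These genes stand in a response that reached 47.5% of the genes tested. Of 13734 genes, 3096 rose (22.5%) and 3426 fell (24.9%) at an adjusted p under 0.05 in edgeR's quasi-likelihood test. Without dexamethasone replicate 2, 2891 rose and 3256 fell. The 4 dexamethasone and 4 vehicle values did not overlap in 42.5% of genes tested. This held for 2568 of the genes that rose, 2866 of those that fell and 401 of the genes that did not pass the test. The split between rises and falls depends on the scaling of the libraries. Rises made up 47.5% of the calls here, 37.4% with upper quartile scaling and 29.4% with total counts and no scaling factor. The median log2 change over all genes was -0.02 here, -0.14 with upper quartile scaling and -0.26 with total counts.

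The median gene that fell did so 2.24-fold and the median gene that rose did so 1.85-fold. Of the genes that rose, 57.0% changed by less than 2-fold, against 42.4% of the genes that fell. Between 4- and 8-fold there were 264 rises and 466 falls, and between 8- and 16-fold 101 rises and 223 falls. At 16-fold or more, 86 genes rose and 115 fell. Rises of at least 2-fold numbered 1331 and such falls 1972, and falls of this size outnumbered rises under every scaling tried. With the scaling used here, the excess lay in genes under 10 CPM by mean over the 8 libraries. At 1 to 10 CPM, 501 rises and 1119 falls were this large, and below 1 CPM 80 and 323. From 10 CPM upward such rises outnumbered falls. They numbered 532 and 444 at 10 to 100 CPM, 189 and 75 at 100 to 1000, and 29 and 11 at 1000 or more. The size of a change is thus not separated from level here.

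**Figure D2:**
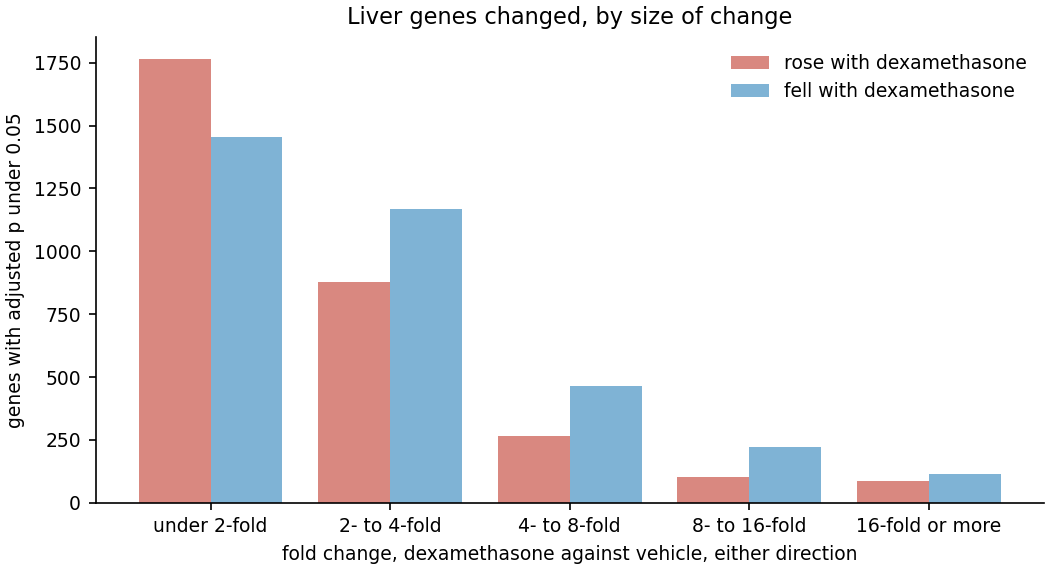
Number of liver genes with adjusted p under 0.05 (vertical axis) by size of the change between dexamethasone and vehicle (horizontal axis), with rises and falls side by side. Under 2-fold, 1765 rises exceed 1454 falls, and in each larger class falls exceed rises. The excess of falls of at least 2-fold lies in genes with a mean under 10 CPM.

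Rises and falls lay at different CPM levels, which are not corrected for gene length. Level was the mean over both groups compared, so a rise itself lifts a gene's level and a fall lowers it. Part of the pattern may come from this choice, so the counts are a description. Among the 95 genes with a mean of 1000 CPM or more over the 8 libraries, 47 rose and 19 fell. Among 1007 genes at 100 to 1000 CPM, 419 rose (41.6%) and 152 fell (15.1%). The order was the reverse at lower CPM, with 724 rises (14.5%) and 1575 falls (31.6%) among 4988 genes at 1 to 10 CPM. Below 1 CPM, 81 of 1172 genes rose and 323 fell. Between 10 and 100 CPM 28.2% rose and 21.0% fell, an order that flips with upper quartile scaling (21.5% rose and 27.2% fell) and with total counts. In the other 4 classes it was the same under all 4 scalings. The error of a log2 change also differed with level, with a median SE of 0.55 below 1 CPM and 0.15 at 10 to 100 CPM, so the size a change needs to be called was not the same in each class.

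**Figure D3:**
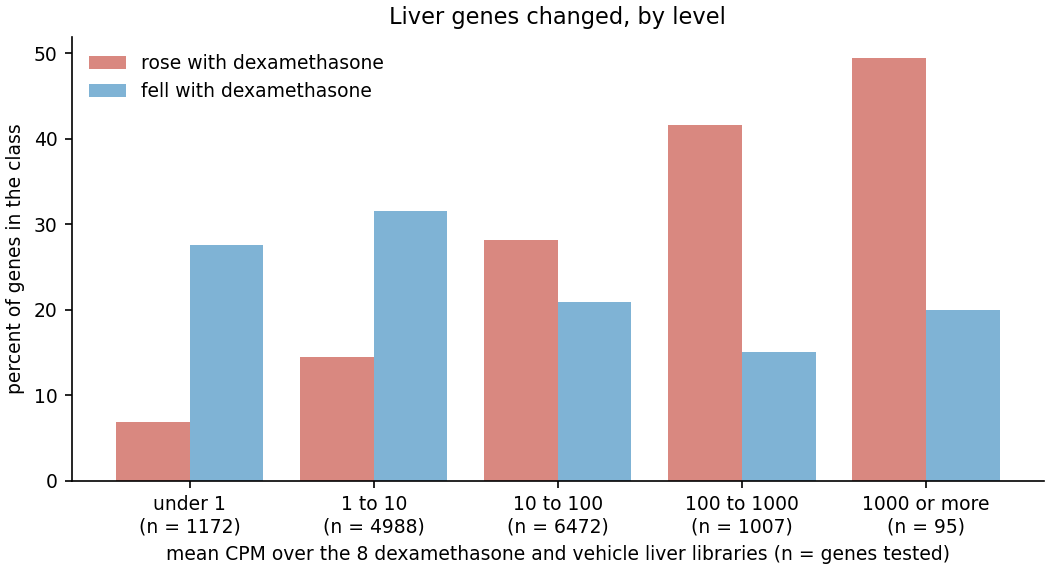
Percent of tested liver genes that rose or fell with dexamethasone (vertical axis) by mean CPM over the 8 libraries (horizontal axis, with the number of genes). Rises are 49.5% and falls 20.0% at 1000 CPM or more, and 14.5% and 31.6% at 1 to 10 CPM; the order at 10 to 100 CPM flips with upper quartile scaling and with total counts.

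The genes that rose took 48.4%, 55.7%, 48.9% and 48.9% of gene counts in the dexamethasone libraries, against 25.9%, 25.9%, 26.8% and 27.9% in the vehicle libraries. The genes that fell took 9.45%, 6.96%, 10.1% and 8.87% with dexamethasone, against 27.7%, 28.4%, 26.3% and 24.9% with vehicle. Since the calls chose these genes, the shares are a description. The 8 genes with the largest losses made up at least 0.5 of the summed loss, and the 24 with the largest gains at least 0.5 of the summed gain. The 10 genes with the largest losses together took 2.78% ± 0.625 of counts with dexamethasone, 10.1% ± 0.761 with desisobutyryl ciclesonide and 12.4% ± 0.824 with vehicle (SD, n = 4 each). The 10 genes with the largest gains took 17.05% ± 2.38 with dexamethasone, with replicate 2 highest at 20.6%. They took 9.22% ± 0.584 with desisobutyryl ciclesonide and 8.96% ± 0.502 with vehicle.

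Of the 10 losses, 8 were at least 16-fold higher in liver than in lung, measured in desisobutyryl ciclesonide libraries, which are neither of the groups compared. Of the 10 gains, 5 were. These libraries come from drug-treated pups, so the ratio is not that of liver and lung given vehicle. In lung, 8 genes of each set could be tested. Among these, 1 of the losses rose and 0 fell, and 2 of the gains rose and 0 fell, where 27.1% of the genes tested in both tissues rose in lung and 30.8% fell. The difference between tissues passed the test for 5 of the 8 in each set, against 34.6% of all genes tested in both. The sets were picked for a large change in liver, which itself favours such a difference, so nothing is read from these counts.

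**Figure D4:**
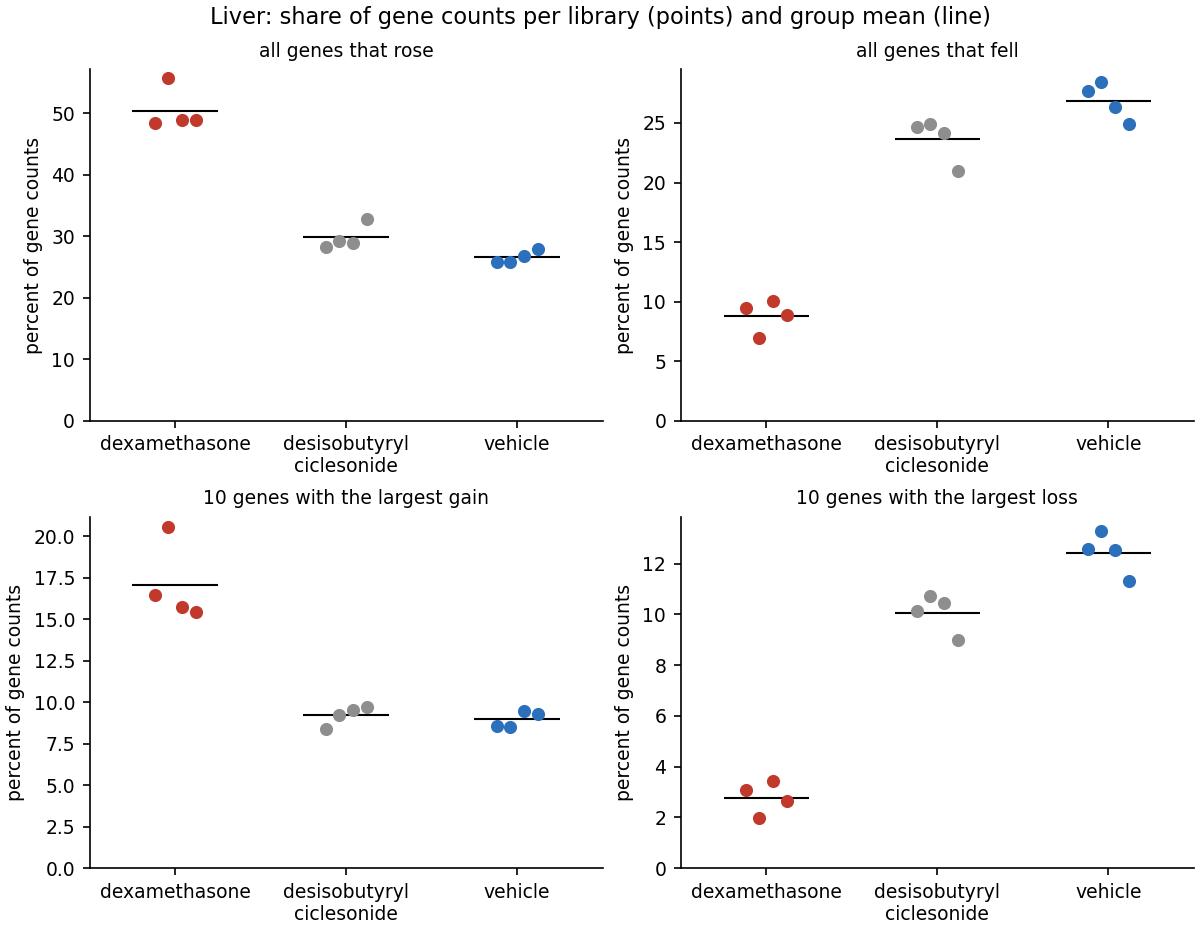
Percent of gene counts per liver library (points, 4 per group) and group mean (line) held by all genes that rose, all that fell, and the 10 with the largest gain or loss; these genes were chosen by the calls themselves. Genes that rose hold 48.4% to 55.7% with dexamethasone and 25.9% to 27.9% with vehicle.

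Of the 100 genes with the most counts in dexamethasone and in vehicle livers, 70 were common to both. Of the dexamethasone list 62 rose, 11 fell and 27 did not pass, and of the vehicle list 33 rose, 32 fell and 35 did not pass, where 22.5% of all genes tested rose and 24.9% fell. Each list was picked by counts in 1 of the groups compared, 30 genes of the dexamethasone list being there through that group alone, so rises are favoured in it by the choice and these counts are a description. The share of counts held by the leading genes of each library passed no test. The 10 genes with the most counts took 28.99% ± 1.55 with dexamethasone and 30.7% ± 0.768 with vehicle (SD, n = 4 each; exact permutation p = 0.143, adjusted p = 0.214 over 15 measures), a difference larger than either SD in libraries that overlapped. The 100 genes with the most counts took 55.2% ± 2.01 of counts with dexamethasone and 54.6% ± 0.997 with vehicle (exact permutation p = 0.600, adjusted p = 0.643). The same gene had the most counts in all 8 libraries, at 8.99% ± 0.795 with dexamethasone and 9.40% ± 0.582 with vehicle (exact permutation p = 0.429, adjusted p = 0.495).

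At the deposited depth, 15958, 16010, 16645 and 16484 genes had a count with dexamethasone and 17042, 16922, 16611 and 16721 with vehicle, and the groups overlapped in dexamethasone replicate 3, the deepest library, and vehicle replicate 3. At an equal depth of 15397992 counts, the expected numbers were 15958, 15843, 16259 and 16363 with dexamethasone and 16959.5, 16798, 16493 and 16612 with vehicle, and these did not overlap. The mean was 16106 ± 245 genes with dexamethasone and 16716 ± 205 with vehicle (SD, n = 4 each; exact permutation p = 0.0286, the smallest that 4 against 4 libraries allow; adjusted p = 0.0714, which misses the threshold). Reads that aligned without overlapping a counted feature made up 11.5% ± 0.256 of entries with dexamethasone and 10.5% ± 0.399 with vehicle. Reads that fit more than 1 gene made up 3.28% ± 0.295 with dexamethasone and 2.77% ± 0.152 with vehicle. Reads with several alignments made up 2.66% ± 0.179 with dexamethasone and 3.09% ± 0.0726 with vehicle. None of these groups overlapped (exact permutation p = 0.0286 and adjusted p = 0.0714 for each), and their part in the gene counts was not tested.

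Genes far higher in liver than in lung, by their ratio in ciclesonide-treated tissues, included both rises and falls. With genes classed by their liver to lung ratio in the ciclesonide libraries, 185 of 677 genes at least 16-fold higher in liver rose and 245 fell, or 27.3% and 36.2%, against 22.5% and 24.9% over all genes. Together they took 45.3% ± 1.28 of counts with dexamethasone and 49.4% ± 0.806 with vehicle (SD, n = 4 each; exact permutation p = 0.0286, adjusted p = 0.0714). Genes 2- to 16-fold higher in liver differed the other way in their mean share of counts. They took 29.8% ± 1.88 with dexamethasone and 23.6% ± 0.551 with vehicle (exact permutation p = 0.0286, adjusted p = 0.0714), with 663 of 2396 higher and 709 lower. Neither pair of groups overlapped, but both adjusted p miss the threshold. The classes are shares of the same total, so a lower share in 1 class favours a higher share in another. Of 336 genes at least 16-fold lower in liver than in lung, 58 rose and 95 fell.

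The liver response differed from that of lung in 34.6% of the 13245 genes tested in both tissues. The change was higher in liver in 2300 genes and lower in 2287 (edgeR test of the difference, adjusted p under 0.05). This split depends on the libraries and the fit. With 1 lung library left out, 1912 to 2071 genes were higher and 2255 to 2402 lower. Another scaling (RLE) gave 2233 higher and 2337 lower, and limma-voom 2173 and 2061. Dexamethasone changed 57.9% of the genes tested in both tissues in lung, with 27.1% higher and 30.8% lower. Of the genes that rose in liver, 1588 also rose in lung, which is 53.5% of the liver rises and 44.2% of the lung rises. Of those that fell in liver, 1909 fell in lung, or 58.6% of the liver falls and 46.8% of the lung falls. Within these 3497 genes the test told the tissues apart in 825, with the larger change in liver in 503 and in lung in 322. Another 636 genes went opposite ways, 299 up in liver and down in lung and 337 the reverse, and the difference passed in all 636. These genes were picked by opposite calls in the same libraries, which favours a pass, so it adds no separate support. A further 2092 genes were called in liver and not in lung. The difference itself passed in 1333 of these, and the others are not shown to differ between the tissues by this fit. It has no term for the pup; with liver and lung of 1 treatment and number as a block, 5011 genes differed in place of 4587, and the counts within each class were not recomputed.

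**Figure D5:**
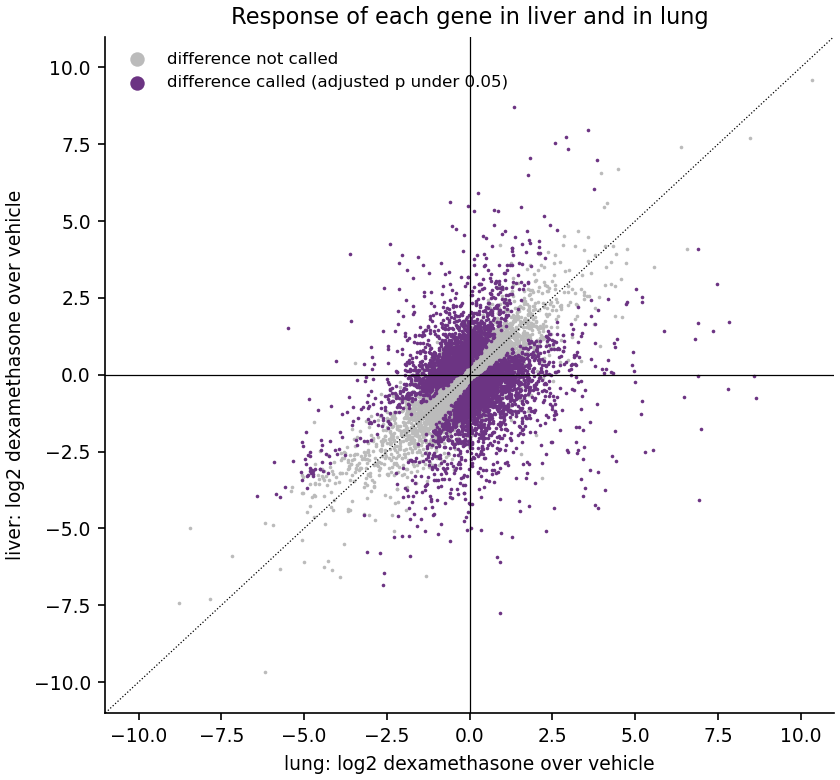
Log2 change with dexamethasone over vehicle of 13245 genes (points) in liver (vertical axis) and in lung (horizontal axis); the dotted line marks equal change, and the 4587 genes whose difference passed the test are coloured. Coloured genes lie on both sides of the line, 2300 above and 2287 below.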

How the data were processed

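The deposited values are raw counts for 30560 Ensembl gene identifiers, made by the authors with cutadapt, HISAT2 and HTSeq on the rat build mRatBN7.2, per the submitters' processing notes. Versions, annotation release and strand setting are not given in the sources used here, which leaves genes that overlap, lie antisense or have near copies uncertain. Libraries were poly-A selected and directional, per the labels' protocols. The 5 closing summary rows, 21.8% to 22.8% of entries in the 8 libraries, stayed out of library sizes and gene tests. In the desisobutyryl ciclesonide livers these rows held 16.8% to 19.3% of entries, below all 8 libraries. Reads that did not align made up 0.80% to 1.40% there, against 1.88% to 3.32% in the 8. The reason was not tested, and these ciclesonide libraries entered the spread and the classes of liver to lung ratio.

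Of the identifiers, 0 matched the table of 47357 RefSeq rat genes, so 44 gene lists, promoter sequences and a covariate from Y-linked genes could not be used. The members, lists and tests were chosen with earlier results of these data known.

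Counts were fitted with edgeR 4.0.16 (R 4.3.3): default expression filter, TMM scaling, robust quasi-likelihood F-test on the 12 liver libraries with 1 mean per treatment, Benjamini-Hochberg adjustment at 0.05. The SE is the log2 change divided by the root of F. CPM use the TMM-scaled sizes. The tissue difference was fitted to all 24 libraries over genes passing the filter in both tissues. Shares and detected genes were compared by two-sided exact permutation tests over libraries, adjusted over 15 measures, 5 of them (the classes of liver to lung ratio) added after seeing the data. The rule for named genes was cut, for want of names, to 2 each way: the largest log2 change among called genes whose groups did not overlap and whose higher group averaged 2 CPM or more, and the largest change in share of counts; this reading of it was settled after values were seen. A bound uses a floor of 3 counts over a group and covers counting error only.

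Deviations from the group mean correlated between the liver and the lung library of 1 treatment and number (8 pairs, Pearson r 0.114 to 0.297 across 13245 genes). In 7 of the 8 the liver library correlated best with the lung library of its own number; vehicle 1 (r = 0.114) did so with another. The 2 were taken as 1 pup for the fit with a block, which the labels do not state. All 12 pairs of replicates differed beyond counting error (chi-square over degrees of freedom 15.1 or more). The fits were also run on simulated counts with up to 200 changed genes and the same dispersion for every gene. Far more genes were called in the real data, so this run does not test how the split of rises and falls depends on scaling. Alternatives were DESeq2 1.42.0, limma-voom (limma 3.58.1), other scalings and filters, the 8 libraries alone, a replicate block and leaving out each library.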

Additional observations from a re-analysis of the deposited data

Results flagged for a closer look

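The response to dexamethasone differed between liver and lung in 4587 genes by the test of the difference itself. In the checks for single libraries, 59 groups of 4 values were examined, and chance flags about 1 group in 20; 5 stood out. Genes that rose took 55.7% of counts in liver dexamethasone replicate 2, against 48.4% to 48.9% in the other 3 dexamethasone libraries. Reads fitting more than 1 gene made up 3.00% of entries in liver vehicle replicate 2, above the other vehicle libraries. The remaining 3 were lung values of named genes. ENSRNOG00000069485 stood at 5.78 CPM in lung dexamethasone replicate 3, the lowest of its group. ENSRNOG00000019660 stood at 6.10 CPM in lung vehicle replicate 1, the highest of its group. ENSRNOG00000002889 stood at 0.144 CPM in lung dexamethasone replicate 4 and had no count in the other lung dexamethasone libraries.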

How the results depend on the processing

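Counts of changed genes stayed within 1.5 times their value under every alternative but 1: with total counts and no scaling factor, chosen after seeing the data, 1950 genes rose in place of 3096. No gene called here was called in the opposite direction under any alternative. DESeq2 called 6875 genes, limma-voom 6549 and the 8 libraries alone 5986. With the replicate block 6177 genes were called. Dexamethasone and vehicle livers of the same number did not deviate together (Pearson r from -0.12 to 0.01). This cannot exclude a shared litter, which the labels do not give. With the pup as a block across tissues (replicate block) 5011 genes differed between liver and lung. Leaving out 1 library at a time gave 5826 to 6482 changed genes and 4152 to 4545 tissue differences. The 4 named genes kept their call and direction under all 18 alternatives, with adjusted p from 6.91e-76 to 0.000777. Genes detected differed by -610 at equal depth and by -550 at the deposited depth. The covariate from Y-linked genes, the gene lists and the promoter motifs were not run, for want of gene names. With 4 libraries a group, no exact test adjusted over 15 measures passed the threshold.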

Other observations

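Genes tested in liver and not in lung numbered 489, of which 129 rose (26.4%) and 168 fell (34.4%) with dexamethasone, where 22.5% of all genes tested in liver rose and 24.9% fell. Expression varied more among dexamethasone livers than among vehicle livers: over 12562 genes with a mean of at least 1 CPM, the median SD of log2(CPM + 0.5) was 0.27 with dexamethasone and 0.22 with vehicle, and the SD was larger with dexamethasone in 60.1% of genes. This was not tested, and dexamethasone replicate 2 is among those libraries. In lungs of pups given desisobutyryl ciclesonide, ENSRNOG00000002889 had 102, 847, 6 and 1 counts, against 42, 7, 9 and 33 counts in vehicle lung.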
